A study of Homo sapiens with 30 samples.

Results

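The genes that encode the proteins of the cytosolic ribosome were followed through nascent transcription, MYC binding and chromatin accessibility in G401 cells. They were taken from the PRO-Seq table by symbol: RPL or RPS followed by digits, with an optional paralog suffix, plus RPLP0, RPLP1, RPLP2 and RPSA, without pseudogenes, mitochondrial ribosomal proteins or RPS6 kinases. The rule found 80 genes among 20367 symbols, 47 of the large (60S) subunit and 33 of the small (40S) subunit, on 21 chromosomes.

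G401 is a malignant rhabdoid tumor (MRT) line that lacks SNF5, a SWI/SNF chromatin remodelling subunit encoded by SMARCB1. Cells were transduced with lentivirus carrying TET-inducible EGFP (the control), SNF5, or OmoMYC (written OMOMYC in the labels), a dominant-negative mutant of MYC. All groups were transduced, selected pools of the same line and all received 1 μg/ml doxycycline for 24 h, so EGFP-expressing cells share the vector, the selection and the drug with the others. MYC ChIP-Seq had 2 samples per construct, and ATAC-Seq and PRO-Seq had 3 each. The study describes the samples of a construct as independent experiments. The p-values given below come from PRO-Seq fits with the replicate number as a block. They rest on the spread left after differences between replicate numbers are removed, pooled over the constructs, and not on the full spread between samples of a construct. Introduced SNF5 is expressed at a level set by the vector, and OmoMYC is built from MYC sequence, so reads of the transgene and of MYC itself cannot be told apart.

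Each ribosome carries a single copy of nearly every ribosomal protein, and the genes are transcribed at high rates in growing cells, mostly from short gene bodies with short introns that often hold small nucleolar RNAs (snoRNAs). Their mRNAs typically begin at a C followed by an unbroken run of pyrimidines, the 5′ terminal oligopyrimidine (TOP) sequence through which mTOR signalling controls their translation. MYC, a transcription factor that binds DNA with MAX at the E-box CACGTG and related hexamers, is known for its occupancy of ribosome biogenesis and ribosomal protein genes in many cell types.

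The start sites themselves are shown first, because the run of pyrimidines is the sequence feature these genes share and the rule did not use it. RefSeq promoter windows on GRCh38.p14 were matched by symbol for 62 of the 80 genes, and where a gene had more than 1 window the first listed was taken. The annotated first base was a C that opened a run of at least 5 pyrimidines, the C included, in 41 of these 62 (66.1%). Among symbols of the PRO-Seq table that had a window, 625 of 13295 had such a start (4.7%). The share was 64.9% (24 of 37) for the large and 68.0% (17 of 25) for the small subunit. For 10 genes 30 bases around the start are printed below, 15 before and 15 from the annotated first base, on the strand of the gene, with the pyrimidine run from the first base in capitals where it began with C. They were chosen because they belong to genes whose values are given below, and because they set the usual start beside exceptions.

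RPL39, chrX:119791616-119791645, minus strand: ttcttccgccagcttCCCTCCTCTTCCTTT

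RPLP2, chr11:809952-809981, plus strand: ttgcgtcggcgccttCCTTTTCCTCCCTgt

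RPS24, chr10:78033848-78033877, plus strand: cggcgaatcgtggttCTCTTTTCCTCCTTg

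RPL35, chr9:124861943-124861972, minus strand: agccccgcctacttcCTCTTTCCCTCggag

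RPL12, chr9:127451392-127451421, minus strand: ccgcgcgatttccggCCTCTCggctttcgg

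RPLP1, chr15:69452803-69452832, plus strand: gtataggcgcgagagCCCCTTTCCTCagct

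RPS12, chr6:132814554-132814583, plus strand: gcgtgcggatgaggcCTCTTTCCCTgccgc

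RPS27, chr1:153990747-153990776, plus strand: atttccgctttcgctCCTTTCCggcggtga

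RPS27L, chr15:63157463-63157492, minus strand: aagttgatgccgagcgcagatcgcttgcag

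RPS27A, chr2:55231888-55231917, plus strand: taaggagtgacacacaagacccagactctt

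The first 8 begin with C and a pyrimidine run, which reached 19 bases in RPL39, the longest among the 62 genes, while RPS27L and RPS27A have no such start in the annotation used. In the PRO-Seq table RPS27A had 3 to 46 reads per sample near the start listed there and 2006 to 5164 in the gene body. Whether the annotated start of RPS27A is the one used in these cells was not tested. RPS27L is a paralog of RPS27, so the 2 related genes differ at the start. The median run was 7 bases for ribosomal protein genes and 0 for all symbols. The window from 250 bases before to 50 after the start held TATAAA between 40 and 15 bases before the start in 1 of the 62 genes, RPLP0 (1.61%), against 3.32% of symbols. It held CACGTG, searched on both strands, in 2 (3.23%) against 9.02%.

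PRO-Seq is a nuclear run-on assay that places engaged RNA polymerases on the genome by strand. The table gives reads in a promoter-proximal window, the 50 bp with the most reads within 500 bp of the start, and in the gene body from 1 kb downstream to the end. Gene body reads totalled 28388012 to 46859674 per sample. Promoter-proximal reads totalled 517824 to 671718 in the samples numbered 1, 2920064 to 3381190 in those numbered 2 and 2024662 to 2535633 in those numbered 3. SMARCB1 gene body reads were 71.0, 125.3 and 77.2 per 1000000 reads in the SNF5 samples and at most 0.17 in the others. Levels below are gene body densities, in RPKM (reads per kb of gene body per 1000000 gene body reads, scaled for depth), so that genes of different length can be set side by side.

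Ribosomal protein genes were among the most densely transcribed genes of EGFP-expressing cells. Of the 80 genes, 70 had a mean of at least 10 gene body reads and were tested (43 large, 27 small). Their median density was 23.7 RPKM, against 1.23 for all 15060 genes tested, and 68 of the 70 lay above the 90th percentile of all genes (4.87). The median was 23.3 for the large subunit and slightly higher for the small. Their gene bodies had a median length of 3519 bp, against 29506 bp for all genes tested, and 63 of the 70 were under 10 kb. Together the genes took 0.692%, 0.712% and 0.656% of gene body reads in the EGFP samples.

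RPL10A, a protein of the L1 stalk where deacylated tRNA leaves the ribosome, had the highest mean density, with 50.1, 69.9 and 77.3 RPKM in EGFP samples 1, 2 and 3. RPS12, RPL13, RPS6 (the target of S6 kinases) and RPL12 followed. RPS12 gave 59.8, 64.1 and 57.2 in the same units. The EGFP samples of neighbours in this order overlapped, except that every RPS12 sample lay above every RPL13 sample. At the other end, RPS19, a gene mutated in Diamond-Blackfan anaemia, gave 1.34, 1.97 and 1.44 RPKM, and RPL39L, a paralog of RPL39 known from testis, gave 0.825, 1.12 and 0.666. RPL39 itself gave 9.23, 12.2 and 8.99. RPL3L, the paralog of RPL3 known from striated muscle, had 3 to 16 gene body reads per sample, whereas RPL3 had densities of 31.3, 23.8 and 30.7 in the EGFP samples.

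**Figure D1:**
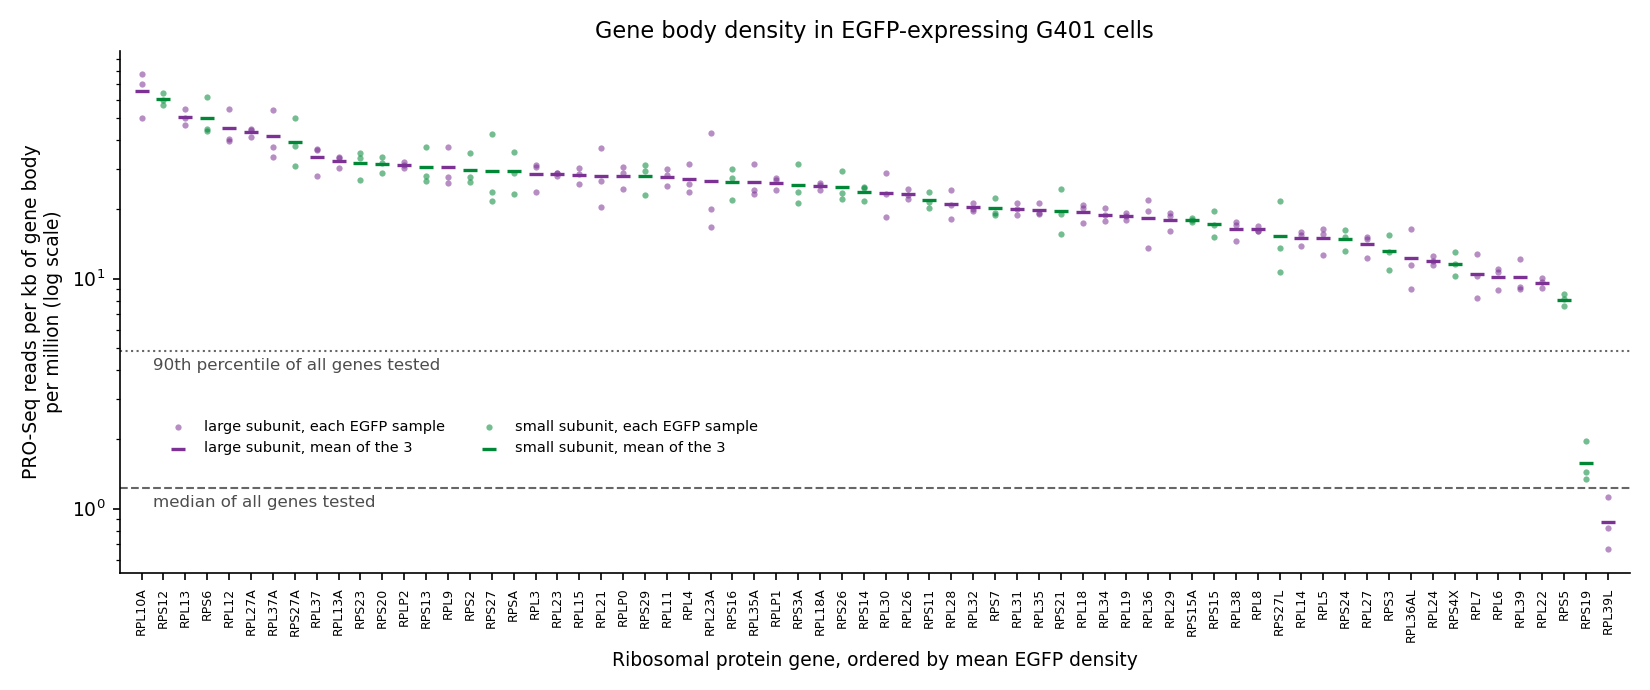
Gene body density (y axis, PRO-Seq RPKM, log scale) of 68 of the 70 tested ribosomal protein genes (x axis, ordered by mean) in the 3 EGFP samples. Points are samples, bars are means, purple marks the large and green the small subunit, and the lines mark the median (1.23) and the 90th percentile (4.87) of all genes tested. RPS19 and RPL39L lie below the upper line and the other genes drawn lie above it.

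The remaining 10 genes could not be tested in the gene body. Of these, 6 had 0 reads in both regions in all 9 samples, RPL10, RPL7A and RPS9 among them, as did 7.6% of all symbols (1548). RPL3L, RPL41 and RPS4Y2 had reads but were under the minimum. The authors removed reads with a mapping quality under 10, and many ribosomal protein genes have processed pseudogenes or near-identical copies. How many reads this took from each gene was not tested, so a listed 0 is no measure of transcription, and the level of any member with such copies may be understated.

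RPL41, which encodes the smallest ribosomal protein, showed the opposite imbalance. Its gene body window is 243 bp, with 0 to 7 reads per sample, but its promoter-proximal window had 2377, 46890 and 25517 reads in the EGFP samples. It alone took 11.96% to 25.31% of the promoter-proximal reads on ribosomal protein genes in the 9 samples. The 80 genes together took 3.84%, 6.78% and 4.91% of all promoter-proximal reads in the EGFP samples.

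The first comparison asked how ribosomal protein genes responded when MYC was inhibited by OmoMYC. Gene body reads fell for 45 of 70 genes and rose for 0 (64.3%), where 4.42% of all genes tested fell and 4.1% rose. The median log2 fold change was −0.42 for ribosomal protein genes and 0 for all genes, and estimates were negative for 69 of the 70. The change was of like size in both subunits, with a median of −0.42 and 26 of 43 genes lower for the large, and −0.42 and 19 of 27 for the small. The tests were edgeR's quasi-likelihood tests over all genes, blocked on replicate number, at 0.05 after Benjamini-Hochberg adjustment. Counts are relative to all gene body reads, so a change common to all genes would not be seen, and in a bulk sample fewer transcribing cells and fewer polymerases per cell cannot be told apart.

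The P stalk, a flexible arm of the large subunit made of RPLP0, RPLP1 and RPLP2 that recruits translation factors, held some of the larger decreases. RPLP2 had densities of 31.2, 30.2 and 32.2 RPKM in EGFP samples 1, 2 and 3 and of 17.2, 14.7 and 24.6 in the OmoMYC samples. The groups do not overlap, with the OmoMYC sample numbered 3 nearest to EGFP. The log2 fold change was −0.75 (standard error 0.11, adjusted p = 0.0161, edgeR). RPLP1 had 27.3, 24.3 and 26.7 with EGFP and 16.5, 14.2 and 20.9 with OmoMYC, again without overlap, and a log2 fold change of −0.61 (standard error 0.10, adjusted p = 0.0215, edgeR). RPLP0, the base of the stalk, did not pass the test.

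RPL39 and RPL35 belong to the part of the large subunit where the nascent chain leaves the ribosome. They are named for the size of their decreases, and genes were not compared by position in the ribosome. RPL39 had densities of 9.23, 12.2 and 8.99 RPKM with EGFP and of 5.53, 6.26 and 6.57 with OmoMYC. The log2 fold change was −0.72 (standard error 0.10, adjusted p = 0.0148, edgeR). The RPL35 promoter is 1 of those that the study assayed one by one for MYC binding. It did so at more loci in HEK293 cells, another line, than in G401 cells. RPL35 had densities of 19.1, 19.3 and 21.3 with EGFP and 11.8, 10.6 and 15.7 with OmoMYC, and a log2 fold change of −0.66 (standard error 0.09, adjusted p = 0.0133, edgeR). In both genes every OmoMYC sample was below every EGFP sample.

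RPL12, which lies at the base of the P stalk, had densities of 39.68, 54.95 and 40.42 with EGFP and of 24.2, 28.6 and 31.9 with OmoMYC, a log2 fold change of −0.67 (adjusted p = 0.0168, edgeR). RPS27A, which encodes a fusion of ubiquitin with a small subunit protein, had 30.8, 49.8 and 37.8 with EGFP and 19.7, 28.3 and 27.8 with OmoMYC, a log2 fold change of −0.63 (standard error 0.08, adjusted p = 0.00969, edgeR). In neither gene did the OmoMYC samples reach the lowest EGFP sample. RPL10A and RPS12, the most densely transcribed members, fell by 0.57 and 0.60 on the log2 scale, with adjusted p-values of 0.015 and 0.0254 from edgeR.

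The promoters of RPS24 and RPL5 were also assayed one by one by the study for MYC binding. RPS24, a small subunit protein, had densities of 16.3, 13.2 and 15.1 with EGFP and of 12.6, 9.04 and 13.7 with OmoMYC. These groups overlap, but within each replicate number OmoMYC was lower, and the log2 fold change was −0.36 (standard error 0.08, adjusted p = 0.0304, edgeR). RPL5, which binds 5S rRNA, had 16.5, 15.7 and 12.7 with EGFP and 11.4, 10.3 and 12.6 with OmoMYC, and its log2 fold change of −0.39 did not pass (standard error 0.11, adjusted p = 0.0539, edgeR). RPL10 had no reads in the table.

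Not every member was lower. RPL39L was the single gene with a positive estimate, 0.22 (standard error 0.11, adjusted p = 0.226, edgeR), beside −0.72 for RPL39. RPS23, a protein of the decoding centre, had densities of 33.5, 35.2 and 26.8 with EGFP and of 29.3, 29.0 and 31.3 with OmoMYC, with an estimate of −0.08 (adjusted p = 0.586, edgeR). RPL23A (−0.12), RPL15 (−0.17), RPS29 (−0.18), RPS27L (−0.21) and RPLP0 (−0.22) had the next smallest estimates and did not pass.

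The decrease differed in size between replicate numbers. The median log2 ratio of OmoMYC to EGFP over the 70 genes was −0.50 for the samples numbered 1, −0.61 for those numbered 2 and −0.15 for those numbered 3, with 69, 69 and 60 genes lower. For all genes the median was between −0.01 and 0.00. Reads on MYC, which include any from the OmoMYC transgene, were 146.5, 383.1 and 132.1 per 1000000 in OmoMYC samples 1, 2 and 3, and 102.0, 123.5 and 86.3 in the EGFP samples. Of the 70 genes, 60 were lower in all 3 numbers (85.7%), where 27.5% of all genes were.

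The count of 45, taken here as genes called in either direction, rested on which samples were in the fit. It was 0 without the samples numbered 1 or those numbered 2, and 0 without EGFP 1, EGFP 2, OmoMYC 1 or OmoMYC 2 alone. It was 70 without the samples numbered 3, 62 without EGFP 3 and 64 without OmoMYC 3, and 27, 31 and 61 without SNF5 1, 2 and 3. The 70 include RPL39L, which was higher with OmoMYC in all 3 replicate numbers, so they are not all decreases. Fitted without the replicate block the count was 0. Shares of all genes called in these fits are not given, so the counts are no comparison with other genes. The median log2 fold change stayed between −0.58 and −0.30 when samples were left out in turn.

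**Figure D2:**
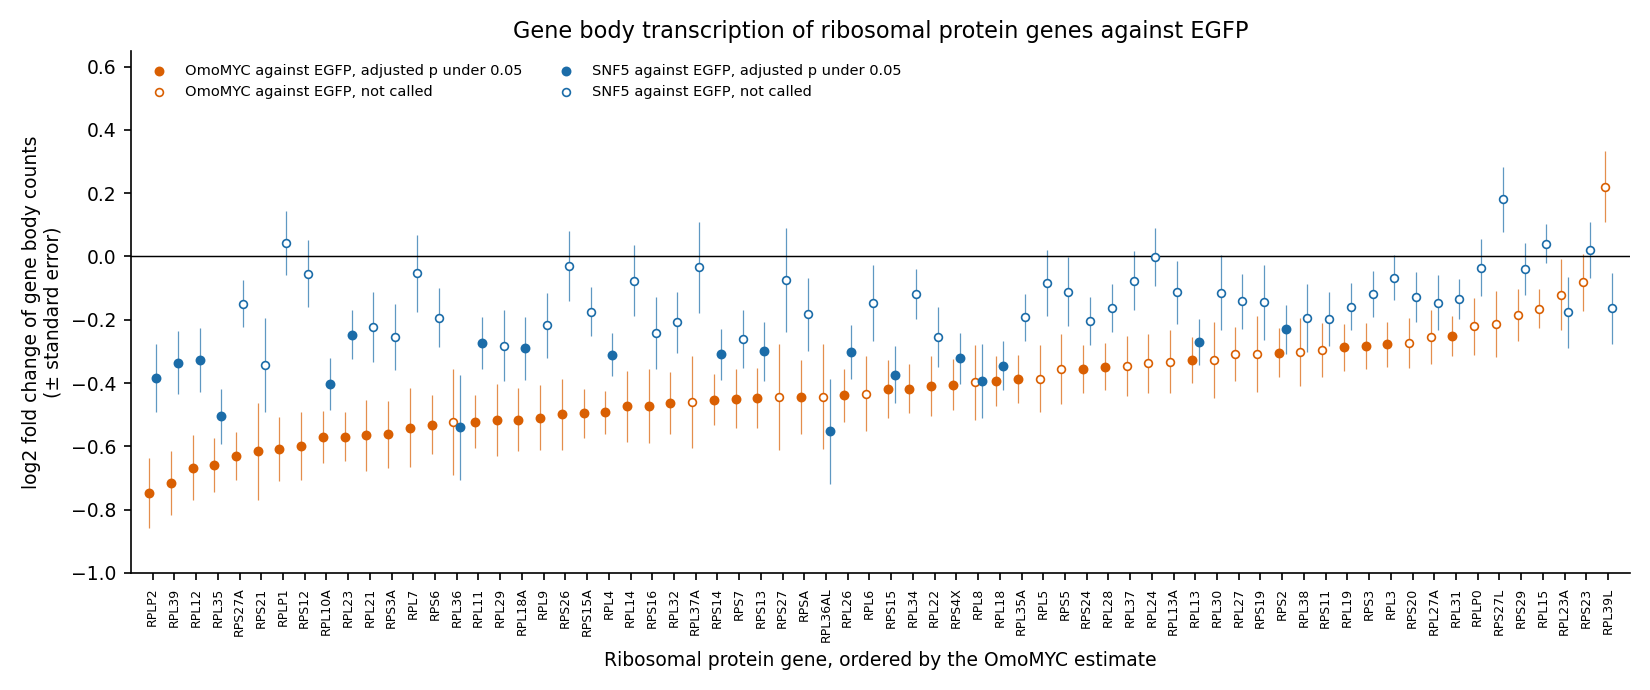
Log2 fold change of gene body counts against EGFP (y axis, bars show the standard error of the edgeR fit) for 68 of the 70 tested ribosomal protein genes (x axis, ordered by the OmoMYC estimate). Orange marks OmoMYC and blue SNF5, filled points have an adjusted p under 0.05 and open points do not. OmoMYC estimates run from −0.75 for RPLP2 to 0.22 for RPL39L, and most SNF5 estimates lie nearer to 0.

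Properties of the genes were set beside the size of the decrease. Genes of any kind with gene bodies under 10 kb had a median log2 fold change of −0.08, and 6.61% of them fell (226 of 3421). Across the 70 ribosomal protein genes, which share libraries, the change was related to log2 gene body length with Pearson's r = 0.462 and Spearman's rho = 0.491, with shorter gene bodies lower, given as a description. The 26 tested hosts of snoRNAs had a median of −0.42 with 18 lower, and the other 44 had −0.42 with 27 lower, so hosts and other genes had like medians. Genes with a TOP start in the annotation had a median of −0.44 with 26 of 36 lower, and those without had −0.43 with 13 of 19.

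The second comparison asked how the same genes responded to SNF5, and it shares the EGFP samples with the first. Gene body reads fell for 21 of 70 genes and rose for 0 (30.0%), where 16.5% of all genes fell and 17.5% rose. The median log2 fold change was −0.19 for ribosomal protein genes, with 66 estimates negative, and −0.18 for all genes with gene bodies under 10 kb, of which 22.6% fell (774 of 3421). The large subunit had 15 of 43 genes lower and the small 6 of 27, both with a median of −0.19. Genes with a TOP start had a median of −0.19 with 9 of 36 lower, and those without had −0.21 with 7 of 19.

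RPL35 showed one of the larger decreases, with densities of 14.3, 12.5 and 15.3 RPKM in the SNF5 samples, all below the EGFP samples given above. Its log2 fold change was −0.51 (standard error 0.09, adjusted p = 0.00286, edgeR). RPL10A had 43.7, 51.5 and 52.0 with SNF5, which overlaps the EGFP samples, and fell by 0.40 on the log2 scale (standard error 0.08, adjusted p = 0.00633, edgeR). RPLP2 had 24.2, 21.4 and 26.4, without overlap, and a log2 fold change of −0.38 (adjusted p = 0.0254, edgeR).

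RPL36AL, a paralog of RPL36A, had densities of 9.06, 16.5 and 11.4 with EGFP, 7.24, 9.58 and 9.92 with OmoMYC and 8.16, 8.36 and 8.02 with SNF5. With SNF5 it fell by 0.55 on the log2 scale (standard error 0.17, adjusted p = 0.0309, edgeR), and the OmoMYC estimate was −0.44 (adjusted p = 0.117, edgeR). With RPL36 and RPL8 it was 1 of 3 genes called with SNF5 and not with OmoMYC, while 18 were called with both and 27 with OmoMYC and not SNF5. These counts are no test of the difference, which is given below. RPS4X, the X-linked form of its protein, fell in both, by 0.41 with OmoMYC and 0.32 with SNF5 on the log2 scale (adjusted p = 0.0275 and 0.0154, edgeR).

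RPLP1 and RPS12, which had large decreases in OmoMYC-expressing cells, had SNF5 values that overlapped those of EGFP. RPLP1 had densities of 26.0, 27.1 and 27.4 with SNF5, of which the last lies just above the EGFP range, with a log2 fold change of 0.04 (adjusted p = 0.776, edgeR). RPS12 had 54.2, 65.4 and 55.1, with a log2 fold change of −0.05 (adjusted p = 0.724, edgeR). RPS24 had 14.9, 10.7 and 13.4 and RPL5 had 14.4, 13.3 and 14.6, with log2 fold changes of −0.20 (adjusted p = 0.0626) and −0.08 (adjusted p = 0.572) from edgeR. RPS27L, at 14.2, 21.4 and 15.2, had the largest estimate, 0.18 (adjusted p = 0.203, edgeR).

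By replicate number, the median log2 ratio of SNF5 to EGFP was −0.20, −0.30 and −0.10, with 66, 65 and 53 of the 70 genes lower. All 3 numbers were lower for 48 genes (68.6%), where 31.6% of all genes were. The share among genes with short gene bodies is not given. The count of 21, again of genes called in either direction, became 4, 1 and 54 without the samples numbered 1, 2 and 3. It was 5, 3 and 40 without EGFP 1, 2 and 3, 11, 4 and 15 without SNF5 1, 2 and 3, and 14, 16 and 31 without OmoMYC 1, 2 and 3, and the fit without the replicate block called 0. Shares of all genes called in these fits are not given here either.

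The direct comparison of SNF5 with OmoMYC tests the difference between the constructs. It called 16 of 70 genes higher with SNF5 (22.9%) and 1 lower, where 11.5% of all genes were higher and 7.38% lower. The median log2 difference was 0.20, positive for 66 genes, and 44 genes were higher in all 3 replicate numbers (62.9%, against 26.8% of all genes). RPLP1 (0.65, adjusted p = 0.00294), RPS12 (0.54, adjusted p = 0.00891) and RPS27A (0.48, adjusted p = 0.00299) were higher with SNF5, as were RPL39 (0.38), RPLP2 (0.36), RPL12 (0.34) and RPS27L (0.39). RPL39L was lower (−0.39, adjusted p = 0.043, all from edgeR). RPL35, at 0.15 (adjusted p = 0.248, edgeR), did not pass.

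By replicate number the median was 0.27, 0.30 and 0.04, so the samples numbered 3 again had the smaller difference. The genes called in either direction numbered 17, and 1, 1 and 58 without the samples numbered 1, 2 and 3. They numbered 2, 3 and 43 without OmoMYC 1, 2 and 3, 8, 4 and 20 without SNF5 1, 2 and 3, and 8, 15 and 28 without EGFP 1, 2 and 3. The median stayed between 0.13 and 0.30, and the fit without the replicate block called 0.

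The ratio of large to small subunit reads overlapped between the constructs. Gene body reads on large subunit genes were 1.49, 1.56 and 1.47 times those on small subunit genes in the EGFP samples, 1.43, 1.57 and 1.49 times in the OmoMYC samples, and 1.43, 1.51 and 1.51 times in the SNF5 samples.

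Genes of the same pathway outside the rule were taken from lists. Of 6 ribosome components and paralogs with other symbols, 2 fell with each construct, where 4.42% of all genes fell with OmoMYC and 16.5% with SNF5. GNB2L1, which encodes the scaffold protein RACK1 of the 40S subunit, fell by 0.43 with OmoMYC and 0.27 with SNF5 on the log2 scale. FAU, a fusion with a small subunit protein, had estimates of −0.57 and −0.50 that did not pass, and none was called for RPL7L1, RPL22L1 or RPL26L1. Of 23 other genes known for TOP transcripts, mostly translation factors but also the noncoding snoRNA hosts GAS5 and SNHG1, 14 fell and 0 rose with OmoMYC (median −0.30). With SNF5 10 fell and 0 rose (median −0.17), beside the same shares of all genes and 22.6% of genes with short gene bodies.

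For promoter-proximal reads, 71 ribosomal protein genes were tested among 11241 genes with enough reads in that region. With OmoMYC, edgeR called 0 ribosomal protein genes, where 1.63% of all genes rose and 0.169% fell. At an unadjusted p under 0.05 there were 10 of the 71, beside 1740 of all 11241 genes. DESeq2 called 2, but here and below it was scaled by promoter-proximal counts and edgeR by gene body counts. The median log2 fold change was 0.15, against 0.13 for all genes. With SNF5, edgeR called 0 (background 2.64% up and 1.63% down), DESeq2 called 3, and the median was 0.05. Here 5 of the 71 had an unadjusted p under 0.05, beside 2258 of all 11241 genes. Between SNF5 and OmoMYC edgeR called 0 (0.48% up and 0.356% down) and DESeq2 called 0. At an unadjusted p under 0.05 there were 2, beside 1550 of all genes. Standard errors had a median of 0.22 on the log2 scale in this region, against 0.09 in gene bodies, so changes of the size seen in gene bodies were not detectable for many genes.

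The largest promoter-proximal estimates were 0.73 for RPS23 (adjusted p = 0.0873) and 0.69 for RPS20 (adjusted p = 0.114) with OmoMYC, and 0.70 for RPS20 with SNF5 (adjusted p = 0.0667). The lowest were −0.66 and −0.68 for RPS7 (adjusted p = 0.102 and 0.0564, edgeR). RPL41, with 3723, 54864 and 23614 reads in the OmoMYC samples, had an estimate of 0.25 (adjusted p = 0.684, edgeR).

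The pausing index is the ratio of promoter-proximal to gene body read density, so a higher index reflects more polymerase near the start relative to the gene body. In EGFP-expressing cells the median over the 70 tested genes was 4.597, 28.26 and 15.81 in samples 1, 2 and 3, against 9.33, 44.8 and 27.8 for all 11171 genes tested. In every sample the ribosomal protein genes had the lower median. The level of the index followed the promoter-proximal depth of the replicate number, and comparisons are therefore within a number.

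With OmoMYC, the pausing index rose for 15 of 70 genes and fell for 0 (21.4%), where 2.18% of all genes rose and 0.0806% fell. The median log2 change was 0.59 for ribosomal protein genes and 0.14 for all genes, and 64 estimates were positive. For genes of any kind with gene bodies under 10 kb the median was 0.18, and 3.36% of them rose. In all 3 replicate numbers 41 genes were higher (58.6%), where 25.9% of all genes were. The large subunit had 9 of 43 genes higher with a median of 0.60, and the small 6 of 27 with 0.57. Gene body reads are the denominator of this index, so these calls are not independent of the decreases above.

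RPL39 had pausing indices of 3.253, 26.98 and 14.95 with EGFP, 4.91, 73.4 and 33.1 with OmoMYC and 3.83, 67.6 and 20.1 with SNF5. Within each number OmoMYC was above EGFP, and the log2 change was 1.12 (standard error 0.23, adjusted p = 0.00486, edgeR). RPLP1 had 2.60, 71.4 and 30.1 with EGFP and 6.99, 227.0 and 35.7 with OmoMYC, a log2 change of 1.09 (standard error 0.23, adjusted p = 0.00589, edgeR). RPS12 had 4.06, 9.46 and 4.94 with EGFP and 11.4, 19.3 and 7.97 with OmoMYC, a log2 change of 1.07 (standard error 0.21, adjusted p = 0.003, edgeR).

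RPS20, a small subunit protein, was called with both constructs. Its indices were 13.0, 180.9 and 54.6 with EGFP, 24.2, 362.0 and 108.8 with OmoMYC and 19.7, 331.2 and 110.3 with SNF5. The log2 change was 0.96 with OmoMYC (standard error 0.20, adjusted p = 0.00396, edgeR) and 0.83 with SNF5 (standard error 0.20, adjusted p = 0.00834, edgeR). Promoter-proximal reads of RPS20 alone had a larger standard error (0.225) and did not pass with either construct (adjusted p = 0.114 and 0.0667, edgeR). RPS20 was the single ribosomal protein gene called with SNF5, where 2.02% of all genes rose and 1.64% fell, and the median was 0.26, against 0.01 for all genes. Genes of any kind with gene bodies under 10 kb had a median of 0.10 with SNF5, and 3.11% of them rose and 0.495% fell.

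Some members had lower estimates, none past the test. RPS7 had −0.21 with OmoMYC and −0.43 with SNF5, RPS3 had −0.19 and −0.38, and RPL39L had −0.46 with OmoMYC. RPS24 had 0.50 and 0.59 and RPL35 0.72 and 0.51, with adjusted p-values from 0.0651 to 0.216 (edgeR). Between SNF5 and OmoMYC, RPLP1 was the 1 gene called, lower with SNF5 by a log2 difference of −0.87 (adjusted p = 0.0374, edgeR), where 0.125% of all genes were higher and 1.1% lower, and the median was −0.30.

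By replicate number the median log2 ratio of OmoMYC to EGFP was 0.58, 0.85 and 0.22 for ribosomal protein genes and 0.37, 0.25 and −0.11 for all genes. For SNF5 it was 0.30, 0.31 and 0.01, beside 0.16, 0.04 and −0.13. The count of 15, again of genes called in either direction, was 9, 0 and 39 without the samples numbered 1, 2 and 3. It was 17, 1 and 33 without EGFP 1, 2 and 3, 4, 0 and 17 without OmoMYC 1, 2 and 3, and 15, 9 and 18 without SNF5 1, 2 and 3, and 0 without the replicate block. With SNF5 the 1 call became 0 to 8 and between the constructs 0 to 13 when samples were left out, highest without EGFP 1 and without the samples numbered 3.

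**Figure D3:**
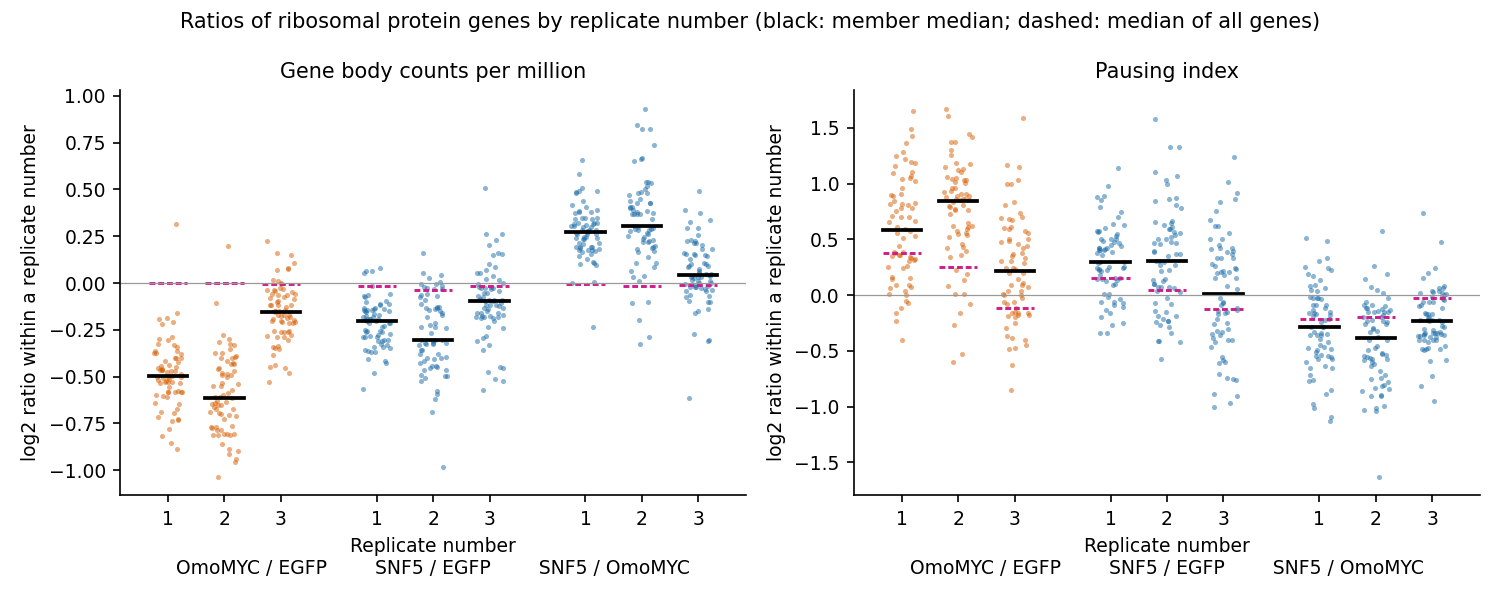
Log2 ratio between constructs within each replicate number (y axis), for depth-scaled gene body counts (left) and the pausing index (right), with one point per tested ribosomal protein gene. Black bars are member medians and dashed bars the median of all genes tested. For OmoMYC over EGFP the gene body medians are −0.50, −0.61 and −0.15, and the samples numbered 3 have the smallest shift.

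MYC binding was read from peaks called in each ChIP-Seq sample. In EGFP-expressing cells 41 of the 80 genes (51.2%) had overlapping peaks of both samples within 1 kb of the transcript start, where 4.31% of all symbols had. The share was 51.1% (24 of 47) for the large and 51.5% (17 of 33) for the small subunit. All symbols include genes with few or no PRO-Seq reads, and the share among densely transcribed genes alone is not given. EGFP replicate 1 had a peak at 41 of the genes (4.35% of symbols) and replicate 2 at 75 (23.1%), so 34 genes had a peak in replicate 2 only. RPL28, RPL39L, RPL3L, RPS4X and RPS4Y2 had none. The 41 genes are those of replicate 1, and the count without it is 75.

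The peaks had the heights usual in these samples but lay further downstream. Fold enrichment over local background at the 41 genes had a median of 5.42 in replicate 1 and 7.45 in replicate 2, against 5.60 and 8.29 over the 897 regions that both samples shared. The summit in replicate 2 lay a median of 131 bp past the transcript start, and past it for 32 of 41 (78.0%), against 16 bp and 53.5% for all symbols with such a region. RPS24 (hg19 chr10:79793518-79816571) had fold enrichments of 6.32 and 9.91 with summits 208 and 234 bp past the start. RPL5 (chr1:93297594-93307481) had 8.95 and 14.7. RPL35 (chr9:127620158-127624240, minus strand) had 5.60 and 6.10. RPL10 had a peak in replicate 2 only, with a fold enrichment of 9.25.

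The highest fold enrichments in replicate 2 were those of RPS19 (14.7), RPL5 (14.7), RPS23 (13.9), RPSA (11.8) and RPL8 (11.7). RPS19 was at the same time among the tested genes with the lowest gene body density. The genes with both peaks had a median gene body change with OmoMYC of −0.41 with 24 of 38 lower, and those without had −0.43 with 21 of 32 lower. Most of these 32 had a peak in replicate 2, as 67 of the 70 tested genes did. They are therefore not a group without MYC peaks, and bound and unbound genes are not compared here. With SNF5 the medians of the same groups were −0.20 and −0.18. For the pausing index with OmoMYC they were 0.64 (11 of 38 higher) and 0.57 (4 of 32). Across the 67 tested genes with a peak, fold enrichment in replicate 2 and gene body change had r = 0.195 with OmoMYC and r = −0.05 with SNF5, given as a description of points that share libraries.

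In SNF5-expressing cells 11 of the 80 genes had a peak in at least 1 sample, where 0.643% of symbols had one, and in OmoMYC-expressing cells 0 did. Each OmoMYC list holds 1 placeholder line and 0 called peaks anywhere in the genome, so that 0 says nothing particular to ribosomal protein genes. Replicate 1 gave 9 of them and replicate 2 gave 2 (RPSA and RPS19). The fold enrichment was 7.79 at RPS23, which had 9.17 and 13.9 with EGFP. It was 6.36 at RPLP2, which had 6.85 and 10.4, and 5.40 at RPL5. At RPS3, RPL35A, RPSA, RPL13, RPS2, RPLP0 and RPS19 it lay between 4.75 and 5.88. Of the 41 genes with both EGFP peaks 10 were among these (24.4%), against 14.5% of all symbols with such a region. The 41 genes needed peaks of both EGFP samples, whereas a peak of 1 SNF5 sample was enough. Both SNF5 samples had fewer mapped reads than either EGFP sample after removal of PCR duplicates. A called peak is no measure of the amount of binding.

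**Figure D4:**
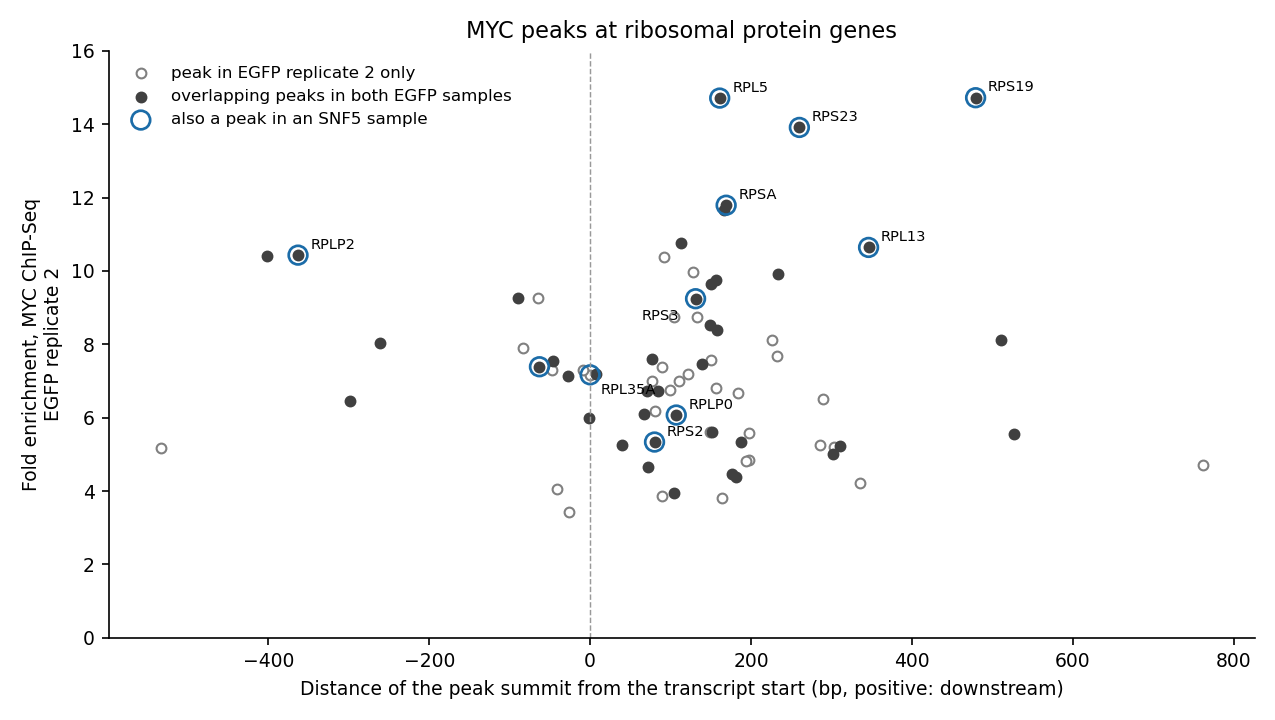
Fold enrichment of the MYC peak in EGFP replicate 2 (y axis) against the distance of its summit from the transcript start (x axis, bp, positive downstream) for ribosomal protein genes. Filled points also have an overlapping peak in EGFP replicate 1, open points do not, and ringed points have a peak in an SNF5 sample. RPL5 and RPS19 are highest at 14.7, and most summits lie past the start.

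The hexamers under these peaks were then read from the GRCh37 sequence within 100 bp of the replicate 2 summit, on both strands. CACGTG was found at 8 of the 41 genes (19.5%), against 477 of the 897 regions (53.2%). CACGCG was found at 15 (36.6% against 35.8%), CATGCG at 5 (12.2% against 13.0%) and CATGTG at 4 (9.76% against 14.2%), and a window can hold more than 1 of them. At 16 genes (39.0%), RPL5, RPL35, RPS3 and RPS6 among them, none of the 4 hexamers was found. All 8 CACGTG sites are printed below on the gene's strand in hg19 coordinates, with 10 bases to each side and the hexamer in capitals, since they are the classical MYC sites in this group.

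RPL13, chr16:89627426-89627451, plus strand: ggcgcgtggcCACGTGgttcaaccag

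RPL22, chr1:6259566-6259591, minus strand: ccaggggaggCACGTGggcctcgccg

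RPL23, chr17:37010035-37010060, minus strand: ttgctccggcCACGTGaggagggtgg

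RPLP1, chr15:69745540-69745565, plus strand: cccccgggacCACGTGcgggcccagc

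RPS19, chr19:42364475-42364500, plus strand: gagccgcggcCACGTGcgagcggcag

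RPS2, chr16:2014795-2014820, minus strand: tccgacaaaaCACGTGagtcctgttg

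RPS23, chr5:81573980-81574005, minus strand: ctccaggaggCACGTGgtccggcgcg

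RPSA, chr3:39448395-39448420, plus strand: ctgcggcccgCACGTGgccaggctcg

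The hexamers lie from 8 bp (RPL23) to 497 bp (RPS19) past the transcript start of the PRO-Seq table, measured to the base with the lowest coordinate. On the minus strand, as for RPL23, that base is the end further from the start. In GENCODE's coding transcripts the site is in a coding exon of RPL13, in an exon of at least 1 transcript of RPL22, RPS19, RPS2 and RPSA, in an intron of RPLP1 and RPS23, and outside the annotated transcripts of RPL23. The 8 genes had a median fold enrichment of 6.30 and 10.7 in the EGFP samples, and the 33 others 5.21 and 7.39. A match is a description of letters in this window and shows no binding by itself.

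Chromatin accessibility was read from ATAC-Seq peaks within 1 kb of the start for the 62 genes with a GRCh38 start. A peak was present in all 3 samples at 30 genes with EGFP (48.4%, against 35.8% of 13295 symbols), 29 with OmoMYC (46.8%, against 32.1%) and 46 with SNF5 (74.2%, against 51.2%). The share was higher with SNF5 over all symbols as well, and whether ribosomal protein genes differ from them in this was not tested. Shares among densely transcribed genes alone are not given here either. By sample the counts were 41, 47 and 32 with EGFP, 32, 54 and 36 with OmoMYC and 55, 55 and 46 with SNF5. The groups overlap, since OmoMYC replicate 2 and EGFP replicate 2 reach 54 and 47.

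A peak in all 9 samples was present at 22 genes. Peaks in all 3 SNF5 samples without all 3 EGFP samples were present at 18, and the opposite held for RPL35 and RPS3. RPS4X was the single gene with a peak in 3 of 3 SNF5 samples and 0 of 3 EGFP samples. The peak lists give no read counts, so accessibility is a presence of a called peak and its amount was not analysed here. The count with EGFP is 39 without replicate 3, that with OmoMYC 36 without replicate 1 and that with SNF5 53 without replicate 3.

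**Figure D5:**
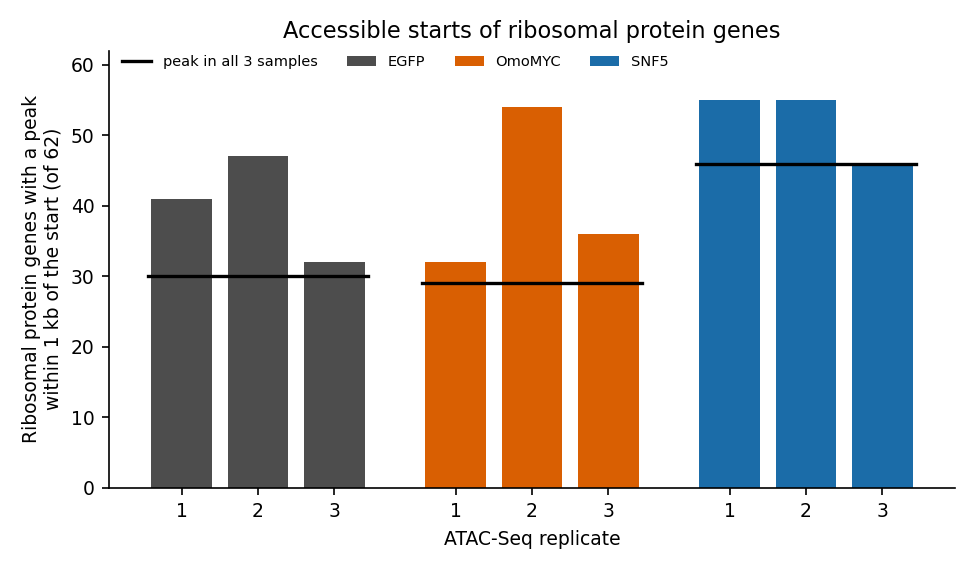
Number of ribosomal protein genes, of 62 with a GRCh38 start, with an ATAC-Seq peak within 1 kb of the start (y axis) in each sample (x axis, replicate 1 to 3 of each construct). Bars are samples and the horizontal lines mark genes with a peak in all 3 samples, at 30, 29 and 46 for EGFP, OmoMYC and SNF5.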

How the data were processed

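Reads were not realigned. The authors used Bowtie2 to align MYC ChIP-Seq (hg19) and ATAC-Seq (hg38), and called peaks per sample with MACS2. The deposited lists give a fold ratio over local background and −log10 q-values (OmoMYC ChIP-Seq lists hold a placeholder line only), which start at 2.03 (ChIP-Seq) and 3.02 (ATAC-Seq). For PRO-Seq the deposited table holds raw read counts per RefSeq transcript and region, and a gene body signal, the density per bp, which matched count over length. The authors kept reads longer than 15 bp with a mapping quality of at least 10.

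Counts were tested with edgeR 4.0.16 in R 4.3.3 (quasi-likelihood, all 9 samples, 1 transcript per symbol, mean of at least 10 reads, RLE factors of gene body counts for both regions, Benjamini-Hochberg at 0.05). DESeq2 1.42.0 and limma 3.58.1 were alternatives. DESeq2 took its scaling from the counts of the region tested. Pausing index changes came from a term for region by construct beside a term per sample. Replicate number was a block, since deviations of same-numbered samples correlated at 0.753 to 0.882 (9 pairs) and others at −0.668 to 0.126 (18 pairs). The labels do not say what a number shares, but the study's own tests took a batch effect into account. The test was checked on simulated counts, where most changes of 1.5 times were missed. False calls made up 11.7% of the calls for gene bodies and 25% for the pausing index, above the nominal 0.05. Sequences came from GRCh37 or RefSeq windows on GRCh38.p14, with no conversion between builds. The IgG samples were not used here. Other calculations used Python 3.11.15, pandas 2.3.3, NumPy 2.4.6 and SciPy 1.17.1.

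The members, lists and tests were chosen with earlier results of these data known. Named genes were those the study assayed singly, the 5 with the highest density, the 5 largest changes in each direction per readout against EGFP, the 5 highest MYC folds, those with a MYC peak with SNF5, and paralog pairs. Other genes named were chosen after their values were seen. Some items are not reported here.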

Additional observations from a re-analysis of the deposited data

How the results depend on the processing

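Counts of calls depended on the replicate pairing and on which samples were in the fit. Without the replicate block, edgeR called 0 ribosomal protein genes in each of the 9 tests, with medians of −0.42, −0.19 and 0.20 for gene body reads that stayed close to those with the block. Leaving out samples in turn gave 0 to 70 genes called for gene body reads with OmoMYC, 1 to 54 with SNF5 and 1 to 58 between them. For promoter-proximal reads the ranges were 0 to 4, 0 to 8 and 0 to 1, and for the pausing index 0 to 39, 0 to 8 and 0 to 13. For these fits and the settings below, shares of all genes called are not given. The counts therefore do not show whether ribosomal protein genes moved more than other genes.

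For gene body reads, TMM scaling, no filter, the 6 samples compared, the longest transcript and DESeq2 gave 45 to 57 genes with OmoMYC and 15 to 25 with SNF5. Promoter-proximal calls with OmoMYC were 2 with DESeq2 and 2 with scaling by promoter-proximal RLE factors, which also turned the median from 0.15 to −0.01. With SNF5 they were 1 with TMM, 2 without the filter, 3 with DESeq2 and 3 with promoter-proximal RLE factors. Between SNF5 and OmoMYC there was 1 when only the 6 samples compared were fitted. Pausing index calls with OmoMYC were 8 with limma voom. With SNF5 they were 2 without the filter, and between the constructs 3 without the filter, 8 with the 6 samples compared and 0 with limma voom. The cause of these differences was not tested.

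With a reciprocal overlap of 50%, 22 genes had a MYC region, and leaving out a sample gave 41 to 75. Genes with a MYC peak with SNF5 numbered 2 to 9 with a sample left out, and genes with an ATAC-Seq peak 30 to 39 (EGFP), 29 to 36 (OmoMYC) and 46 to 53 (SNF5). Promoter-proximal depth, lowest in the samples numbered 1, limits that region and the pausing index.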
